A study of Mus musculus with 12 samples.

Results

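Chronic nicotine was compared with saline in Thy1-neurons, the layer V pyramidal neurons of the mouse cortex that carry yellow fluorescent protein in YFPH mice. The members are 5 libraries of the 12 in the series, chosen by their labels, namely 2 of saline mice (replicates 2 and 3) and 3 of nicotine mice (replicates 1, 2 and 3). Replicate 1 of the saline group was not analysed here. All 5 mice were males of the YFPH line (B6.Cg-Tg [Thy1-YFP] HJrs/J, B6 background), weighed about 20 g and were 5 to 7 weeks old. Nicotine mice received 48 mg/kg/d of nicotine hydrogen tartrate from a subcutaneous osmotic mini pump for 14 days, and saline mice carried the same pump with saline alone. The yellow fluorescent protein of this line is driven by a Thy1 promoter element in a subset of pyramidal cells, so that unlabelled pyramidal neurons were not sampled. Slices of all mice were kept in APV, DNQX and TTX, blockers of glutamate receptors and sodium channels, and digested with pronase. Labelled cells were then drawn by hand into a micropipette, 10 at a time. Each library is taken here as 1 mouse, since how the drawn cells were pooled is not stated. The Sst-neurons used below for comparison came from GIN mice on the FVB background, in which green fluorescent protein marks somatostatin interneurons, under the same treatment (3 saline and 2 nicotine libraries, and 10 libraries in all in the table).

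Nicotine opens nicotinic acetylcholine receptors, ligand-gated cation channels that pass sodium and, in some subunit combinations, calcium. In the cortex these receptors are found on interneurons, on incoming fibres and on some pyramidal cells of the deep layers. Layer V pyramidal neurons are the main output cells of the cortex, have large dendrites and long axons, and rely on mitochondrial respiration. Continuous exposure desensitises nicotinic receptors, so that a pump does not mimic single doses.

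The values are numbers of sequenced fragments counted on each gene entry. Totals were 3490998 and 3642451 fragments in the saline libraries and 3472783, 4231469 and 3394454 in the nicotine libraries, and 3 counts, the most that a gene listed at 0 may hide, correspond to 0.709 to 0.884 counts per 1000000 fragments (CPM), depending on the library. This limit covers counting error only. At least 1 of the 5 libraries had a count for 13162 of 35129 entries. The names of many entries could not be used. Of 20 genes that every cell uses and that lie outside the stretches given next, 11 were at 0 in all 5 libraries, among them Actb (beta-actin), Eef1a1 and Hspa8, and the highest count of the 20 was 487. Genes are therefore named only if they are mitochondrially encoded or lie on the GRCm38 genome in the first stretch of chromosome 16 (last gene ending at 88290863), 8 (14901720), 19 (6398464) or 7 (3299355), where names were found usable. These are called checked genes. Whether an entry there holds all fragments of its gene was not tested, and levels, counts of 0 and fold changes refer to the fragments that the table lists under a name. They comprised 1009 nuclear entries, of which 697 held a count and 543 passed the filter on low counts, and 37 mitochondrially encoded entries. None of the 25 symbols listed for acetylcholine receptors and cholinergic genes was a checked gene, so that no statement on nicotinic receptors is made.

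Replicates of 1 group did not resemble each other more than libraries of the other group. Pearson's r of log2 CPM over the 6048 entries tested lay between 0.769 and 0.786 for the 4 pairs within a group and between 0.749 and 0.789 for the 6 pairs across groups. These r values describe libraries over entries, which are not independent. The common dispersion, the squared coefficient of variation between replicates beyond counting error, was 0.826. The only checked marker of pyramidal neurons, Ctxn1 (cortexin 1, a neuronal membrane protein of the cortex), was abundant in every library. It held 1190 and 1545 CPM with saline and 1898, 1350 and 544 CPM with nicotine, against 37.2 to 249 CPM in the 5 Sst-neuron libraries. Of the nicotine libraries, replicate 3 had the lowest Ctxn1 level. Slc17a7, Fezf2, Bcl11b and the other 11 listed pyramidal markers were not checked genes.

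Markers of other cells were counted too, and some stood apart in single libraries. Somatostatin (Sst), the peptide of the interneurons, held 1.15 CPM in saline replicate 2 but 3795 CPM in saline replicate 3, and 49.2, 2.36 and 1.77 CPM in the nicotine libraries. Saline replicate 3 thus stood apart, while Sst-neurons held between 53779 and 126088 CPM. Of the other 3 checked interneuron markers, Chodl and Sox1 were at 0 in all libraries but nicotine replicate 1, with 1 and 10 counts there. Grik1 had 0 and 27 counts with saline and 36, 0 and 22 with nicotine. Of the microglia markers, 4 were checked (Hcls1, Itgb5, Unc93b1 and Cd86), and their summed level was at most 0.275 CPM in the saline libraries and between 0 and 18.7 CPM in the nicotine libraries. All of the latter lay in nicotine replicate 1. Cldn5, the tight junction protein of brain endothelium, had 0 counts in both saline libraries and 42, 0 and 25 counts in the nicotine libraries. The summed level of the 6 checked endothelial and mural markers was 53.8 and 193 CPM with saline and 130 to 183 CPM with nicotine, and that of 3 astrocyte markers was 100.5 and 200.5 CPM with saline and 174 to 234 CPM with nicotine. Of these 3, Slc15a2 held 0 and 1 counts with saline and 31, 0 and 0 with nicotine. No oligodendrocyte or red blood cell marker was a checked gene. The part of these cells in the results below was not tested.

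No gene passed the test for a nicotine effect in Thy1-neurons. The quasi-likelihood test of edgeR was fitted on 6048 entries with TMM library sizes (sizes trimmed of the most extreme genes), and an entry was called a differentially expressed gene (DEG) at a Benjamini-Hochberg adjusted p below 0.05 and an absolute log2 fold change above 1. It called 0 entries (0.0%), and 0 of the 575 checked entries. Every adjusted p was 1.00. At an unadjusted p below 0.05 there were 264 entries (4.37%), of which 137 were higher (2.27%) and 127 lower (2.1%) with nicotine. Among the 543 checked nuclear genes these were 33 (6.08%), of which 20 were higher and 13 lower. The share of checked genes was near that of all entries. The count of DEGs was also 0 with limma voom (302 entries at an unadjusted p below 0.05, and 403 with DESeq2), and when any of the 5 libraries was left out. DESeq2, which shares the spread between genes in another way, called 14 entries (0.232%), 3 of them checked, and edgeR without the filter on low counts called 13 (0.0988%), again 3 of them checked.

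The fit bounded the change only for well measured genes. The 95% interval of the log2 fold change lay within -1 and 1, which is a change of less than 2-fold in either direction, for 66 of the 543 checked nuclear genes (12.2%) and for 315 of all entries (5.21%). The median standard error (SE) was 0.52 for the checked nuclear genes and 1.09 for all entries. A p-value that misses the threshold does not show that a gene was the same in both groups. In simulated data where every entry had the common dispersion of 0.826, the test recovered none of the planted log2 changes of 1 to 3. Well measured genes were not simulated at their own spread, so that the simulation does not give the power for them. A count of 0 DEGs does not show that no gene changed.

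Another way to look at the same data is whether the groups overlapped. In CPM, all nicotine libraries lay on one side of both saline libraries for 1263 of the 6048 entries (20.9%), above them for 434 (7.18%) and below them for 829 (13.7%). Of the checked nuclear genes, 124 did not overlap, 43 above and 81 below. This surplus of lower genes depended on the library size. With TMM-scaled library sizes, 1257 entries did not overlap (20.8%), 575 above (9.51%) and 682 below (11.3%), and of the checked nuclear genes 61 lay above and 58 below. The median log2 fold change of all entries was -0.00 with TMM and -0.11 with plain totals. Fold changes below are those with TMM unless stated.

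Of the checked genes with the smallest unadjusted p, 12 were higher with nicotine. In 5 of them (Rwdd2b, Aldh3b2, Pros1, Nde1 and Actn3) the saline libraries held 0 or 1 count. These 5 passed the filter on low counts only through the nicotine libraries, so that they had to differ between the groups, and their p-values are given as a description. Rwdd2b, which encodes a protein with an RWD domain (chromosome 16, 87433331 to 87440592), had the smallest p. Its counts were 1 and 0 with saline and 96, 82 and 216 with nicotine, or 0.286 and 0 CPM against 27.6, 19.4 and 63.6 CPM. The groups did not overlap. The ratio of the summed rates was 253 (95% interval 45.2 to 10027, from counting error only, exact), and the fitted log2 fold change was 7.77 (SE 1.22). The ratio was 165 without nicotine replicate 3 and 124 without saline replicate 3, and without saline replicate 2 the difference was at least 44.8-fold. The unadjusted p of edgeR was 0.000229, yet the adjusted p was 1.00. DESeq2 gave an adjusted p of 0.0037, and over all alternatives the adjusted p ranged from 1.2e-05 to 1.0. In Sst-neurons the same entry held 105, 30.4 and 36.4 CPM with saline and 38.4 and 13.7 CPM with nicotine, so that the 2 saline Thy1 libraries were the only ones of 10 near 0.

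Aldh3b2 (chromosome 19, 3972328 to 3981665), an aldehyde dehydrogenase, had 0 counts in both saline libraries and 181, 44 and 33 counts in the nicotine libraries. The mean of the nicotine libraries, 24.1 ± 24.3 CPM (SD, n = 3), was at least 28.6-fold higher than the limit of 3 counts per saline library, and at least 12.0-fold higher without nicotine replicate 1. Its unadjusted p of edgeR was 0.0017 and its adjusted p 1.00, against 0.0041 with DESeq2 and a range of 0.0004 to 1.0 over the alternatives. Pros1 (protein S, a plasma anticoagulant and ligand of TAM receptors) had 0 and 0 against 2, 96 and 17 counts, and Nde1 (a partner of dynein in nuclear migration) had 0 and 0 against 3, 50 and 14. Both were higher in every nicotine library, but in each of them 1 nicotine library, replicate 1, was at or below the limit for a count of 0. For Actn3 (alpha-actinin 3, known from fast muscle fibres), counts were 0 and 0 with saline and 0, 59 and 68 with nicotine, and the groups overlapped.

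Few genes were detected in 1 group only. Of the 13162 entries with a count, 108 (0.821%) were counted in every nicotine library and in no saline library, and 200 (1.52%) showed the reverse. Of the 697 checked nuclear genes with a count, 9 (1.29%) were seen in every nicotine library alone, and 3 (0.430%) in every saline library alone. The 9 included Aldh3b2, Pros1, Nde1 and 2310008H04Rik (now Spidr), with 47, 20 and 1 counts, and the other 5 had at most 15 counts in any library. All of the 3 were at most at 14 counts. In contrast, 488 of the 697 (70.0%) were counted in all 5 libraries.

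The other higher genes of this group were measured in every library. Irs2, the insulin receptor substrate that links the insulin and IGF1 receptors to PI3 kinase, held 23.5 and 13.2 CPM with saline and 89.8, 42.8 and 46.3 CPM with nicotine. The groups did not overlap, and the log2 fold change was 1.83 (SE 0.58, 95% interval 0.50 to 3.17). Sart1, a component of the spliceosome, held 15.5 and 28.6 CPM against 66.8, 49.6 and 57.2 CPM, and its log2 fold change was 1.47 (SE 0.52). Both Mrpl21 and Mrpl49 encode proteins of the large subunit of the mitochondrial ribosome. Mrpl21 held 381 and 291 CPM with saline and 629, 454 and 563 CPM with nicotine, a log2 fold change of 0.82 (SE 0.28). For Mrpl49 the levels were 276 and 162 CPM and then 432, 278 and 429 CPM, and the lowest nicotine library was only just above the highest saline one. Rfc4 (a subunit of the clamp loader of DNA replication) and Mylk (myosin light chain kinase) did not overlap either, with log2 fold changes of 1.17 (SE 0.43) and 3.46 (SE 1.24). That of Mylk was 2.16 without nicotine replicate 1, 2.78 without saline replicate 3 and 4.92 without saline replicate 2, and that of Sart1 was 2.12 without saline replicate 3. Carkd (now Naxd, which repairs hydrated NADH) had a log2 fold change of 1.19 (SE 0.44), and its groups overlapped in CPM but not with TMM. The unadjusted p of edgeR of these 7 genes lay between 0.0132 and 0.0262, and all adjusted p were 1.00.

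**Figure D1:**
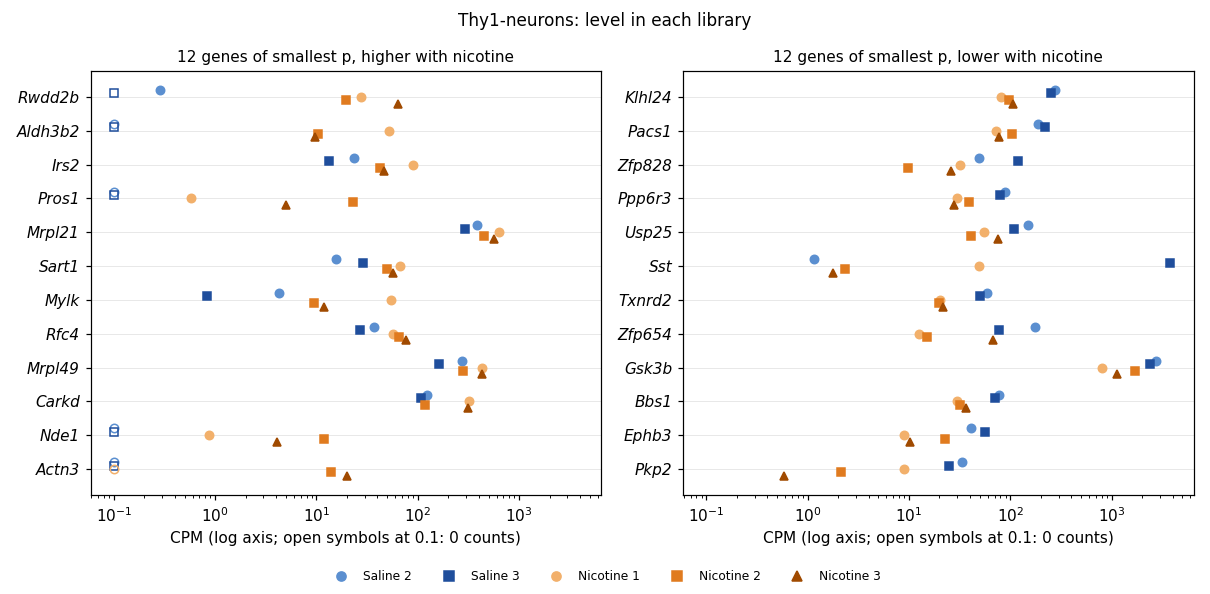
CPM in each of the 5 Thy1 libraries (horizontal log axis; blue, saline; orange, nicotine; open symbols at 0.1 stand for 0 counts) for the 24 checked genes with the smallest unadjusted p, 12 in each direction. Klhl24, Pacs1 and Txnrd2 show saline and nicotine libraries in 2 tight clusters, whereas Rwdd2b, Aldh3b2, Pros1, Nde1 and Actn3 rest on saline libraries with 0 or 1 count, and Sst rests on saline replicate 3.

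Lower with nicotine, the gene with the smallest p was Klhl24 (chromosome 16, 20097553 to 20129226), an adaptor of the cullin 3 ubiquitin ligase that targets intermediate filament proteins. It held 277 and 253 CPM with saline and 80.9, 97.6 and 107 CPM with nicotine, means of 264.9 ± 16.7 (SD, n = 2) and 95.3 ± 13.3 (SD, n = 3). The saline mean was 2.78 times the nicotine mean. The groups were far apart relative to their spread, which a choice by smallest p favours. The log2 fold change was -1.37 (SE 0.30, 95% interval -2.06 to -0.68), with an unadjusted p of 0.0018 and an adjusted p of 1.00 in edgeR. DESeq2 called it with an adjusted p of 0.0143, and over the alternatives the adjusted p lay between 0.0143 and 1.0. The log2 fold change stayed between -1.44 and -1.28 when any library was left out.

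Several further genes had levels about 2-fold apart with little overlap. Pacs1, a sorting adaptor of the trans-Golgi network, held 189 and 218 CPM with saline and 72.9, 104 and 76.9 CPM with nicotine, a log2 fold change of -1.15 (SE 0.36). Txnrd2, the thioredoxin reductase of mitochondria, held 58.7 and 50.0 CPM and then 20.2, 19.6 and 21.5 CPM, a log2 fold change of -1.30 (SE 0.47). Bbs1, a subunit of the BBSome of cilia, held 77.6 and 70.3 CPM against 29.7, 31.9 and 36.2 CPM, a log2 fold change of -1.08 (SE 0.41). None of these 3 overlapped between groups on either scale, beside 13.7% of all entries that lay below in CPM and 11.3% with TMM. Each had a narrow spread within groups, which a choice by smallest p favours. Each had an adjusted p of 1.00 in edgeR.

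Gsk3b, the kinase that phosphorylates glycogen synthase, beta-catenin and tau, was also on the lower side. Its levels were 2747 and 2395 CPM with saline and 809, 1716 and 1142 CPM with nicotine. All nicotine libraries lay below both saline libraries, replicate 2 least so, and the log2 fold change was -0.95 (SE 0.36, 95% interval -1.77 to -0.13). Usp25, a deubiquitinase, held 150 and 108 CPM against 54.7, 41.1 and 76.3 CPM, and its log2 fold change was -1.07 (SE 0.37). The levels of Ephb3, a receptor of ephrin-B ligands in axon guidance, were 41.0 and 56.6 CPM and then 8.93, 22.7 and 10.3 CPM. Zfp828 (now Champ1), Ppp6r3 (a regulatory subunit of protein phosphatase 6), Zfp654 and Pkp2 (plakophilin 2 of desmosomes) completed the list, with log2 fold changes from -2.75 to -1.25 and groups that did not overlap. Several of these values depended on 1 library. Zfp828 was at -0.95 without saline replicate 3, Zfp654 at -2.97 without nicotine replicate 3 and at -1.34 without saline replicate 2, Pkp2 at -4.22 without nicotine replicate 1 and Ephb3 at -2.29 without nicotine replicate 2. The last entry, Sst, had a log2 fold change of -6.69 (SE 2.34) that rested on saline replicate 3. Without that library it was 4.15, in the other direction.

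Of these 24 genes, 10 share exon sequence with another annotated gene on the other strand, for example Mrpl21 with Ighmbp2 and Rfc4 with Eif4a2. Whether the counts used strand is not given in the sources used here, so that fragments of such pairs may not be told apart. Rwdd2b, Aldh3b2, Klhl24, Pacs1, Usp25, Gsk3b and Bbs1 had no such partner.

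The best measured nuclear genes bounded the size of a nicotine effect. App, the amyloid precursor protein, had the smallest SE of all checked nuclear genes. It held 2945 and 3199 CPM with saline and 2617, 2222 and 2693 CPM with nicotine, a log2 fold change of -0.20 (SE 0.23, 95% interval -0.73 to 0.33). The 7 next were 5730403B10Rik (now Cdip1), Atp6v1a (a subunit of the proton pump of vesicles), Rbfox1 (a neuronal splicing factor), Gap43 (growth cone protein), Fgf12 (which binds sodium channels), Mkl2 (now Mrtfb, a coactivator of serum response factor) and 2900011O08Rik (now Bmerb1). Their log2 fold changes ranged from -0.51 for Mkl2 to 0.39 for Gap43. The interval of Gap43 was -0.20 to 0.97, and that of Mkl2 was -1.10 to 0.08. Of these 8 genes, only Mkl2 had an interval that reached beyond a 2-fold change.

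The checked nuclear genes with the highest mean CPM, not corrected for length, were measured about as well. Malat1, a nuclear long noncoding RNA, took 4.24% and 2.69% of all counted fragments with saline and 4.42%, 3.44% and 3.34% with nicotine. The means of 3.47% ± 1.10 (SD, n = 2) and 3.73% ± 0.599 (SD, n = 3) overlapped, with p = 0.9 in a two-sided exact permutation test, whose smallest possible p is 0.1. Cfl1 (cofilin, which severs actin filaments) held 6074 and 6711 CPM with saline and 11169, 6358 and 7794 CPM with nicotine, with nicotine replicate 1 highest. Eif4a2, a helicase of translation initiation, held 7547 and 7114 CPM against 3576, 5149 and 7003 CPM. Its groups did not overlap, but nicotine replicate 3 nearly reached the saline libraries, and the log2 fold change was -0.40 (SE 0.28). Tagln3 and Ap2m1 (a subunit of the clathrin adaptor AP2) overlapped, with log2 fold changes of 0.21 (SE 0.26) and 0.09 (SE 0.27).

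**Figure D2:**
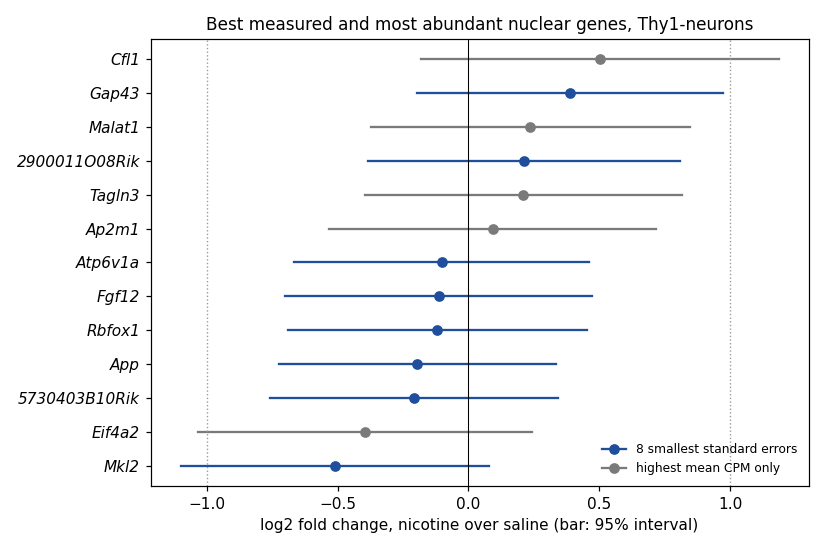
Log2 fold change of nicotine over saline (point) with its 95% interval (bar) for the 8 checked nuclear genes with the smallest SE (blue) and the further genes among the 8 with the highest mean CPM (grey). Dotted lines mark a 2-fold change; all 13 intervals include 0, and those of Mkl2, Eif4a2 and Cfl1 cross a dotted line.

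Mitochondrially encoded genes took overlapping shares of the fragments in both groups. The genome of mitochondria encodes 13 subunits of the respiratory chain, read out as long precursors that are cut at tRNA genes. Their summed share was 31.7% and 35.7% with saline and 31.4%, 38.5% and 34.3% with nicotine. The means of 33.7% ± 2.82 (SD, n = 2) and 34.8% ± 3.57 (SD, n = 3) differed by 1.12 percentage points, less than the spread within either group, with p = 0.9 in the two-sided exact permutation test. That exact test cannot go below 0.1 with these group sizes, so that it shows neither a difference nor that the shares were the same. The difference was -0.877 percentage points without saline replicate 2 and 3.11 without saline replicate 3, and it was negative without nicotine replicate 2 as well. Taken over the checked genes alone, the share was 68.4% ± 3.18 (SD, n = 2) with saline and 69.7% ± 3.58 (SD, n = 3) with nicotine, p = 0.7 in the same exact test. The Benjamini-Hochberg adjusted p was 0.9 for all 6 shares compared in this way.

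Gene by gene, the log2 fold changes of the 13 lay between -0.35 for ND5 and 0.30 for COX3, with a median of 0.12. With TMM 9 were higher and 4 lower, and with plain totals 7 were higher and 6 lower, with a median of 0.01. None had an unadjusted p below 0.05, and 11 of the 13 intervals lay within a 2-fold change. COX3, a subunit of cytochrome c oxidase, took 6.59% and 7.30% of the fragments with saline and 7.88%, 8.23% and 7.67% with nicotine. It was the only one of the 13 whose groups did not overlap in CPM, above, and with TMM-scaled library sizes they overlapped. ND5, a subunit of complex I, took 1.57% and 1.85% with saline and 0.798%, 1.80% and 1.12% with nicotine. Nicotine replicates 1 and 3 were lower than the saline libraries and replicate 2 lay between them.

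The order of the libraries differed from gene to gene. In nicotine replicate 1 the share of ND5 was the lowest of the 5 libraries, while that of ND3, another complex I subunit, was 0.299%, above both saline libraries at 0.219% and 0.242%. In nicotine replicate 3, ND3 was lowest at 0.150%, while CYTB, the subunit of complex III, was 5.08% against 4.07% and 4.79% with saline. COX1 was lowest in nicotine replicate 1 at 4.38% and highest in nicotine replicate 3 at 6.29%.

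The RNAs of the mitochondrial ribosome varied between the nicotine libraries. The 12S and 16S genes, Rnr1 and Rnr2, together took 9.07% and 9.13% with saline and 8.60%, 10.2% and 5.30% with nicotine (means 9.10% ± 0.0438, n = 2, and 8.03% ± 2.49, n = 3, both SD; p = 0.8, two-sided exact permutation test). Nicotine replicate 3 stood apart through Rnr2, at 3.81% against 7.03% to 7.99% in the other 4 libraries. The authors removed reads of ribosomal RNA before alignment, and how far this touched the mitochondrial ribosomal genes was not tested. Of the 22 tRNA entries, 17 were tested, 12 of them lower with nicotine and 5 higher, with a median log2 fold change of -0.12. TrnR, TrnI, TrnK, TrnQ and TrnM did not overlap in CPM, below, and of these TrnR, TrnI and TrnQ did not overlap with TMM either, beside 13.7% and 11.3% of all entries that lay below on these scales. The largest of these differences was that of TrnR, with 28 and 43 counts against 4, 3 and 14.

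**Figure D3:**
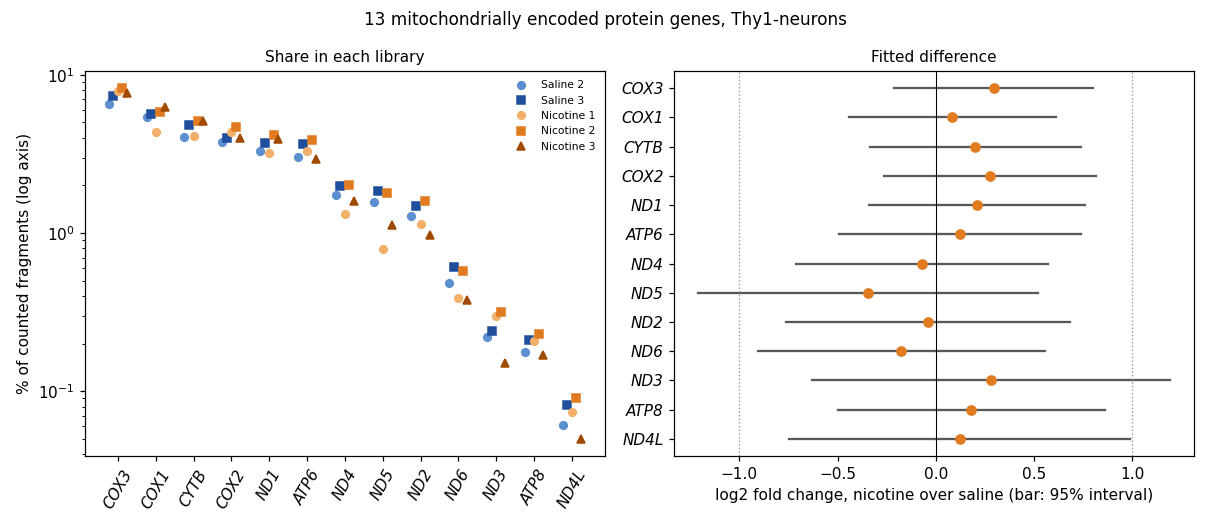
Left, percent of all counted fragments on each of the 13 mitochondrially encoded protein genes (log axis) in the 2 saline (blue) and 3 nicotine (orange) libraries; right, log2 fold change of nicotine over saline with its 95% interval. All intervals include 0, and those of ND5 and ND3 alone cross the dotted lines of a 2-fold change.

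Nuclear genes of mitochondria were compared beside these. Of the 19 listed, 17 were checked and 14 tested. With nicotine 9 were higher and 5 lower, and the median log2 fold change was 0.32 (0.23 with plain totals). The median was -0.00 for all entries, 0.09 for the 543 checked nuclear genes and 0.29 for the 108 of them on chromosome 19. Of the 14 tested genes of the list, Mrpl49 (higher) and Txnrd2 (lower) had an unadjusted p below 0.05. Mrpl21, described above, is not on this list. Ndufs8, a core subunit of complex I, held 1135 and 1310 CPM with saline and 1886, 1034 and 1799 CPM with nicotine, and the groups overlapped through replicate 2. Ndufb4, an accessory subunit of complex I, held 1631 and 1803 CPM against 2165, 1855 and 1263 CPM, here with replicate 3 lowest. Their log2 fold changes were 0.45 (SE 0.30) and 0.16 (SE 0.33). The groups did not overlap in CPM for Mrpl49, Mrpl40 and Slc25a1 (the citrate carrier), above, and for Txnrd2 and Hspa13, below, beside 7.18% above and 13.7% below over all entries.

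Of the genes of axon guidance and adhesion, all 20 checked members were tested, 7 higher and 13 lower, with a median log2 fold change of -0.18 (-0.37 without nicotine replicate 2 and -0.10 without saline replicate 3). The groups did not overlap, below, in 7 of the 20, and above in none in CPM, beside 13.7% below and 7.18% above over all entries. Of the 543 checked nuclear genes, 81 lay below and 43 above in CPM. With TMM-scaled library sizes 7 of the 20 were below and 1 above, beside 11.3% and 9.51% over all entries. Of the 543 genes, 58 lay below and 61 above on that scale. Ephb3 alone had an unadjusted p below 0.05. Cadm2, a synaptic adhesion protein, held 3119 and 3138 CPM with saline and 1344, 2273 and 1850 CPM with nicotine, a log2 fold change of -0.67 (SE 0.30, 95% interval -1.35 to 0.01). Kalrn, which encodes the RhoGEF kalirin of dendritic spines, held 526 and 569 CPM and then 361, 268 and 374 CPM, a log2 fold change of -0.62 (SE 0.27, 95% interval -1.25 to 0.00). For Robo2, a receptor of the guidance cue Slit, the levels were 350 and 435 CPM against 225, 197 and 298 CPM. The log2 fold changes of the list ranged from -2.49 to 2.37. The highest was that of Igsf11 (SE 1.73), which rested on nicotine replicate 1. All 7 of the non-overlapping genes, Cadm2, Kalrn, Robo2, Ephb3, Efnb2 (ephrin-B2), Rtn4r (the Nogo receptor) and Sema5b (a semaphorin), had an adjusted p of 1.00.

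Signalling genes were mixed. Of 9 tested genes of the MAP kinase cascade, 2 were higher and 7 lower, with a median log2 fold change of -0.35 (-0.11 without nicotine replicate 3 and -0.17 without saline replicate 2) and none at an unadjusted p below 0.05. Of 10 tested genes of insulin signalling and fuel metabolism, 4 were higher and 6 lower, and Irs2 (higher) and Gsk3b (lower) were the members with an unadjusted p below 0.05. Insr, the insulin receptor, held 133 and 81.0 CPM against 62.8, 43.5 and 95.7 CPM and overlapped. Of 7 tested calcium signalling genes, 6 were higher, with a median log2 fold change of 0.58 (0.16 without saline replicate 3 and 1.05 without saline replicate 2), and Mylk alone had an unadjusted p below 0.05. Adcy9 and Crebbp, an adenylyl cyclase and the coactivator of CREB, had log2 fold changes of 0.41 (SE 0.51) and 0.25 (SE 0.34).

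Of genes induced by activity or stress, 8 were tested, 3 higher and 5 lower. Npas4, a transcription factor induced by neuronal activity, held 111 and 54.9 CPM with saline and 27.9, 54.1 and 25.3 CPM with nicotine. Saline replicate 2 was highest, and saline replicate 3 and nicotine replicate 2 were alike, so that the groups overlapped with TMM. Its log2 fold change was -1.05 (SE 0.55, 95% interval -2.31 to 0.21). Hes1, a Notch target that is also listed among astrocyte markers, held 30.1 and 30.5 CPM and then 72.0, 50.1 and 51.3 CPM, without overlap, a log2 fold change of 1.04 (SE 0.46). Klhl24 was the member of this list with the smallest p. Arc, Fos, Egr1 and Nr4a1 were not checked genes.

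At the synapse, 7 genes of glutamate receptors and scaffolds were tested, 2 higher and 5 lower, with a median log2 fold change of -0.26, which turned to 0.07 without saline replicate 3 and to 0.04 without nicotine replicate 3. Grin2a, the GluN2A subunit of NMDA receptors, held 29.5 and 38.7 CPM with saline and 16.1, 23.4 and 15.9 CPM with nicotine, and Dlg1 (SAP97, a scaffold) held 457 and 452 CPM against 273, 364 and 398 CPM. Both were lower without overlap, as were 13.7% of all entries in CPM and 11.3% with TMM, with log2 fold changes of -0.77 (SE 0.59) and -0.30 (SE 0.28). Of 17 tested genes of vesicle fusion and endocytosis, 6 were higher and 11 lower. Ehd1, which acts in endosome recycling, held 8.31 and 5.22 CPM against 21.6, 19.6 and 29.8 CPM, a log2 fold change of 1.91 (SE 0.74). Pacs1 was at the other end of the same list. Dnm1l, the dynamin of mitochondrial fission, and Ap2m1 overlapped.

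Of the other lists, RNA binding and splicing had 16 tested members, 11 higher and 5 lower, with a median log2 fold change of 0.22 (9 and 7, and 0.09, with plain totals). This median was 0.08 without nicotine replicate 1 and 0.12 without saline replicate 3. Ribosome and translation initiation had 8 tested, 6 higher, with a median of 0.38 (0.15 without nicotine replicate 1 and 0.20 without saline replicate 2), and Fau, a ribosomal protein fused to a ubiquitin-like domain, overlapped through nicotine replicate 3. The cytoskeleton list had 10 tested and 6 higher, with a median of 0.40 that turned to -0.33 without nicotine replicate 3 and was 0.63 without saline replicate 3 and 0.21 without saline replicate 2. Of 12 tested cytokine and immune genes, 5 were higher and 7 lower and none had an unadjusted p below 0.05. Cd47 and Cd200, membrane proteins by which neurons restrain phagocytes, had log2 fold changes of -0.23 (SE 0.29) and 0.26 (SE 0.30). Purine and pyrimidine metabolism had 10 tested members, 7 higher and 3 lower (6 and 4 with plain totals), none at an unadjusted p below 0.05. None of the 10 was without overlap, beside 20.9% of all entries in CPM and 20.8% with TMM. Monoamine receptors and cyclic AMP had 6 tested, 4 higher, ion channels and transporters 7 tested, 5 higher, and lysosome and proton pump 6 tested, 4 higher with TMM and 3 with plain totals, with Cln8 (an ER cargo receptor for lysosomal enzymes) at a log2 fold change of 1.70 (SE 0.70). Of 4 tested genes of the amyloid list, App, Gsk3b and Usp25 were lower without overlap in CPM, as were 13.7% of all entries, while Adamts1 overlapped. With TMM App overlapped too. No set test was run on any list.

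**Figure D4:**
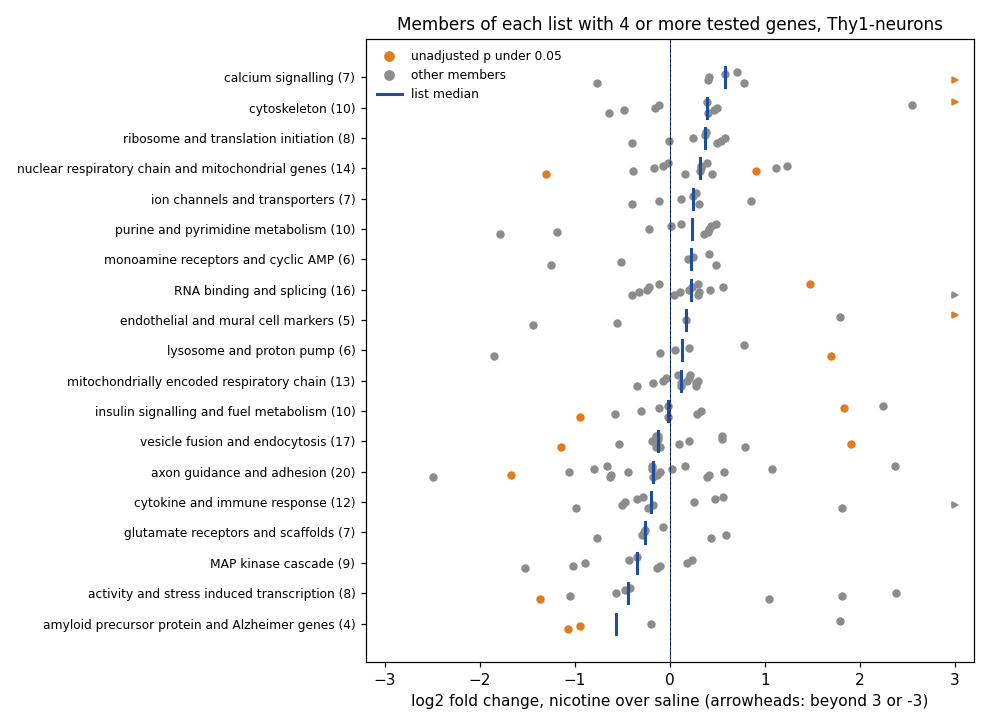
Log2 fold change of nicotine over saline for the tested members (points; orange, unadjusted p below 0.05) of the 19 lists with at least 4 tested genes, with each list's median (blue bar) and, in parentheses, the number of tested genes. Arrowheads mark the 5 points beyond 3 or -3, where a gene in several lists is drawn in each. The medians, many of which turn sign without 1 library, lie on both sides of 0, from -0.57 for the amyloid list to 0.58 for calcium signalling.

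The nicotine effect was then set beside that of Sst-neurons, which came from other mice and share no library with it. The Sst-neuron fit of edgeR called 0 of 6689 entries (0.0%), with 280 at an unadjusted p below 0.05 (4.19%; 2.68% higher and 1.51% lower with nicotine). Its groups did not overlap in CPM for 20.8% of the entries, with nicotine below saline for 4.78% and above it for the rest. The difference between the cell types in the nicotine effect, an interaction of treatment and cell type over all 10 libraries, was called by edgeR for 0 of 8242 entries (0.0%), with 604 at an unadjusted p below 0.05 (7.33%). DESeq2 called 25 (4 checked), and edgeR without the filter on low counts called 36 (5 checked). GIN and YFPH mice are different lines on different backgrounds (FVB and B6), so that cell type, line and background cannot be told apart here. Of the 543 checked nuclear genes, 20 (3.68%) were without overlap in opposite directions in the CPM of both cell types, and 5 (0.921%) in the same direction, beside 2.46% and 1.14% of all 6048 entries. With TMM-scaled library sizes these were 17 (3.13%) and 6 (1.1%), beside 2.43% and 1.16% of all entries.

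Klhl24 had a log2 fold change of -1.37 in Thy1-neurons and 0.41 (SE 0.41) in Sst-neurons, and the difference of 1.74 (SE 0.53) had an unadjusted p of 0.0062 and an adjusted p of 0.673 in edgeR. Gsk3b had -0.95 and 0.57, a difference of 1.48 with an adjusted p of 0.673. Rwdd2b had 7.77 and -1.33, and its difference of -9.19 (SE 1.44) came closest to the threshold, with an adjusted p of 0.134. Its Thy1 value rested on saline counts of 1 and 0. The genes of this paragraph were chosen by their p in the same Thy1 libraries. A large difference was thus partly built in, and its p is given as a description. The difference of Rwdd2b was called when DESeq2 was used and when the filter on low counts was relaxed. These fits reuse the counts by which the gene was chosen and are no separate support. Its difference was -11.65 without saline Thy1 replicate 2 and -9.90 without Sst+Nic replicate 2. Irs2, Sart1 and Ppp6r3 had differences that were smaller relative to their SE, with unadjusted p between 0.0713 and 0.412.

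The mitochondrially encoded genes were set side by side too. The median log2 fold change in Sst-neurons was -0.45, with 12 of the 13 lower after nicotine, against 9 of 13 higher and a median of 0.12 in Thy1-neurons. The Thy1 value was not stable, with 7 of 13 higher and a median of 0.01 with plain totals, and medians of -0.02 without saline replicate 2 and -0.01 without nicotine replicate 2. Their share of fragments was 21.5%, 22.1% and 21.2% in the saline and 16.3% and 19.8% in the nicotine libraries of Sst-neurons. The difference between cell types ranged from -0.91 for COX3 to 0.44 for ND5 with a median of -0.67, and it was called for 0 of the 13. COX3 and CYTB had an unadjusted p below 0.05. Genes of 1 mitochondrial genome are transcribed together, so that the 13 signs are not independent.

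**Figure D5:**
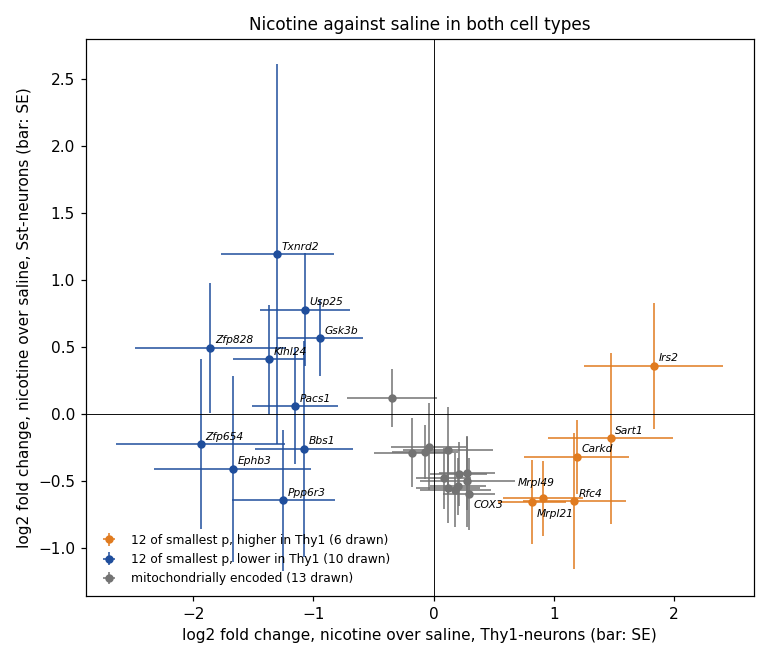
Log2 fold change of nicotine over saline in Thy1-neurons (horizontal) and in Sst-neurons (vertical), each with its SE as a bar, for the mitochondrially encoded protein genes (grey) and those of the 24 genes of smallest p in Thy1-neurons that were tested in both cell types and lie within -3 and 3. The horizontal spread of the coloured points follows from how they were chosen. Of the 24, 16 are drawn; Rwdd2b, Aldh3b2, Pros1, Mylk, Nde1, Actn3, Sst and Pkp2 are not, and most grey points lie below 0 on the vertical axis.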

How the data were processed

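The authors trimmed the paired-end reads, removed ribosomal RNA, aligned to GRCm38 with TopHat and deposited the raw count of fragments per gene entry, without normalization; the submitters' notes also name HTSeq. Annotation and strand setting are not given in the sources used here. Groups came from sample titles. Entries were placed by RefSeq symbol (25710) or synonym (3148); the usable stretches were taken from an earlier comparison of the table with the study's group values, and positions below 3.0 Mb were left out as other scaffolds. Members, lists and tests were chosen with earlier results of these data known. The study's EBSeq test on FPKM was replaced by the quasi-likelihood test of edgeR 4.0.16 (R 4.3.3), TMM, filterByExpr with a minimum count of 10, adjusted p below 0.05 and absolute log2 fold change above 1. The SE was derived from the fold change and the F statistic. Mice are taken as the replicates, 1 per library, which the paper does not state outright. Shares were compared with exact permutation tests over 10 arrangements. DESeq2 1.42.0, limma 3.58.1 (voom with sample quality weights), RLE, plain totals, other filters, 1 fit of all libraries, a replicate block, mitochondrial genes left out, no fold threshold and leave-one-out were alternatives; overlap with TMM-scaled sizes was added after seeing the data. The fits were tested on simulated data: most of the larger planted changes were recovered at a low spread, but none of any size at the spread of these libraries. Tables were made with Python 3.11.15, pandas 2.3.3, numpy 2.4.6, scipy 1.17.1 and matplotlib 3.10.9.

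Genes named in the text were the 12 checked genes with the smallest unadjusted p in each direction, the 8 nuclear ones with the smallest SE, the 8 with the highest mean CPM, the 13 mitochondrially encoded protein genes, the markers, and from each list the 2 members with the highest mean CPM and the member with the smallest p. Other list members, ribosomal and tRNA genes, genes detected in 1 group alone and examples of genes at 0 were named after their values were seen. Some genes that the rule selects are not reported here.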

Additional observations from a re-analysis of the deposited data

Results flagged for a closer look

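For 3 of the named genes every nicotine library lay on one side of every saline library in Thy1-neurons and on the opposite side in Sst-neurons, in CPM. This held for 2.46% of all 6048 entries and for 3.68% of the 543 checked nuclear genes. Of the 3, Mrpl21 and Usp25 had also been chosen by their p in Thy1-neurons. Mrpl21 had log2 fold changes of 0.82 in Thy1-neurons and -0.66 in Sst-neurons, a difference of -1.49 (SE 0.42) with an unadjusted p of 0.0037 in edgeR. In Sst-neurons it held 346, 444 and 325 CPM with saline and 322 and 241 CPM with nicotine, where the gap between 325 and 322 is small. Usp25 had -1.07 and 0.78, a difference of 1.83 (SE 0.57) with an unadjusted p of 0.0072, and held 57.9, 32.9 and 42.6 CPM against 76.1 and 96.1 CPM in Sst-neurons. COX3 had 0.30 and -0.60, a difference of -0.91 (SE 0.33) with an unadjusted p of 0.0182, but its Thy1 groups overlapped with TMM-scaled library sizes. The adjusted p was 0.673 for all 3, so that none passed the test of the difference, and 7.33% of all entries had an unadjusted p below 0.05 in it.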

How the results depend on the processing

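The count of DEGs in Thy1-neurons was 0 with RLE, plain totals, limma voom, all libraries in 1 fit, mitochondrial genes left out, no fold threshold and each library left out. It was 14 with DESeq2, 13 without a filter and 7 when a gene needed 10 counts in 1 library, and for checked entries 3 in each of these. The checked genes were Rwdd2b and Aldh3b2 in all, with Klhl24 in DESeq2 and Sst, which rests on 1 library, in the others. The cause was not tested. In Sst-neurons DESeq2 called 18 entries (1 checked) and the fit without a filter 8 (2 checked). The difference between cell types was called for 25 entries with DESeq2 (4 checked), 36 without a filter (5 checked) and 27 with at least 10 counts (5 checked), and for 0 to 5 entries (0 to 2 checked) when 1 library was left out. The median of the 13 mitochondrially encoded genes lay between -0.02 and 0.43 with 1 library left out; it was -0.02 without saline replicate 2, -0.01 without nicotine replicate 2 and 0.43 without saline replicate 3. The difference in their share ranged from -0.877 to 3.11 percentage points, negative without saline replicate 2 or nicotine replicate 2. Replicate numbers 2 and 3 recur in both groups, but deviations of same-numbered libraries did not correlate (r = -0.038 and -0.106 over 6048 entries); with the replicate number as a block 0 entries were called, and 85 instead of 264 had an unadjusted p below 0.05. Over 197 named genes and their alternatives, 2523 of 2719 fold changes kept direction and side of the threshold, 9 were called and 187 had the other sign without being called.

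Of 19 gene lists with at least 4 tested genes, markers included, the median turned sign for 11 when 1 library was left out. These were the mitochondrially encoded genes (above), the activity (0.28 without saline replicate 2) and cytokine lists (0.02, likewise), glutamate receptors, cytoskeleton, ion channels (-0.05 without nicotine replicate 3), monoamine receptors (-0.02 without nicotine replicate 2), purine metabolism (-0.11 without saline replicate 2), vesicle fusion (0.05 without saline replicate 3), insulin signalling (-0.10 to 0.10) and endothelial markers (-0.37 to 3.12). The other 8 kept their sign.

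The common dispersion was 0.826 with 2 and 3 libraries. The smallest p of the exact tests of shares is 0.1.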
